A study of Mus musculus with 6 samples.

Results

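The crypt stem cell markers are 10 genes that mark the stem cells at the base of intestinal crypts, taken as a fixed list of symbols (Lgr5, Ascl2, Smoc2, Cdca7, Lrig1, Hopx, Msi1, Prom1, Mex3a and Clca3b) out of 49585 genes in the deposited tables. All 10 had counts and all 10 passed the filter on low counts, which left 13759 genes for testing. Smoc2 and Msi1 passed through the wild-type libraries alone, so their direction and lack of overlap were in part fixed by passing. The same holds for every tested gene below that had no knock-out count. RNA was sequenced from tumoroids, which are adenoma cells of the mouse intestine cultured as 3-dimensional structures in Matrigel. The 3 knock-out libraries are labelled IKKa FL/FL and the 3 wild-type libraries IKKa +/+. Both genotypes share the C57BL/6 background, APC min/+ (a single Apc copy with the Min mutation) and Villin-Cre, a recombinase driven by the promoter of a gene of the intestinal epithelium. IKKa is the kinase encoded by Chuk, and both were grown with the same added factors, R-spondin, Noggin, EGF, basic FGF and a ROCK inhibitor. The labels give no age, and they do not say whether the 3 replicates of a genotype came from separate mice or cultures, so the p-values below reflect how much these libraries varied, and that variation may be technical.

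In the crypt, cycling stem cells sit between Paneth cells and are kept by Wnt signals. R-spondin binds receptors of the Lgr family and strengthens those signals, and Ascl2 is a Wnt target that sets stem cell identity. Loss of Apc, the event that starts adenomas in Min mice, keeps the Wnt pathway on without a ligand. Several of the genes mark the fast-cycling cells (Lgr5, Ascl2, Smoc2, Cdca7, Clca3b), and others have been used for slower or reserve cells (Hopx, Lrig1, Mex3a) or for wider compartments (Prom1, Msi1).

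The libraries held 31875723, 26785922 and 30880434 counts in knock-out libraries and 29752507, 20749747 and 26776147 in wild-type libraries. Knock-out replicate 2 stood apart from the other knock-out libraries (chi-square per degree of freedom over genes of 39.7 and 40.2 against them, and 5.86 between those). Chuk had 29.4 ± 5.28 CPM (counts relative to the TMM-scaled library size, mean ± SD, n = 3) in the knock-out, against 100.8 ± 5.21 CPM in the wild type, 3.42-fold lower (adjusted p = 8.6e-08); counts over the whole gene cannot tell the deleted exons from those left. Xist had 1 to 3 counts in knock-out libraries and 23082 to 44250 in wild-type libraries, and Y-linked genes 4600 to 6589 in knock-out libraries and 0 to 1 in wild-type libraries, so genotype and the sex of the source cells cannot be told apart in any result below. The share of counts from mitochondrial genes also differed, at 2.15% to 3.46% in the knock-out, against 6.18% to 7.58% in the wild type, and its part in the results was not tested.

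Of the 10 markers, 8 fell and 2 rose in the knock-out (quasi-likelihood test of edgeR, p adjusted by Benjamini-Hochberg over all 13759 genes and under 0.05). The falls ran from 5.72-fold for Lrig1 to 1858-fold for Smoc2, and the genes that rose were Prom1, 2.18-fold, and Mex3a, 1.49-fold. Calls were common in this comparison: 57.4% of all tested genes were called, 27% as lower and 30.4% as higher. The knock-out and wild-type values did not overlap for any of the 10 markers, against 63.1% of tested genes without overlap. All 8 markers that fell did so by more than 4-fold, which 5.68% of tested genes did, and Smoc2, Clca3b, Msi1 and Lgr5 fell by more than 32-fold, which 2.46% did. Of these, Smoc2 and Msi1 passed the filter through the wild-type libraries alone. The median log2 fold change of the 10 markers was -4.31, beside 0.0 over all tested genes. The markers were chosen with earlier results of these data known, so these shares and medians describe the list and are no test of it. In bulk cultures, fewer cells of a type and less RNA per cell cannot be told apart.

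**Figure D1:**
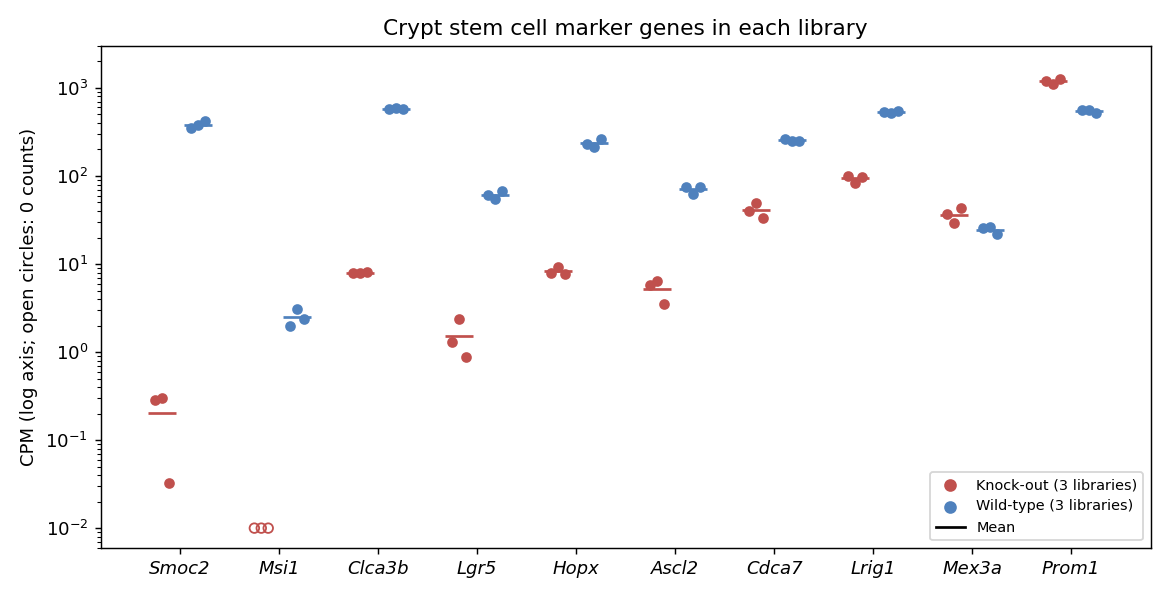
CPM of the 10 markers in each library on a log axis, knock-out left of wild-type for each gene, with a point per library and a line at the mean of 3. Smoc2 lies lowest among the knock-out values above 0, Msi1 has no knock-out count (open circles), and only Prom1 and Mex3a are higher in the knock-out.

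Among the cell surface proteins, Lgr5, the R-spondin receptor that defines cycling crypt stem cells (ENSMUSG00000020140, GRCm38 chromosome 10, 115450311 to 115587780, minus strand), had 41, 64 and 27 counts in knock-out replicates 1 to 3, against 1820, 1122 and 1839 in wild-type replicates 1 to 3. In CPM that was 1.29, 2.4 and 0.871 in the knock-out, against 60.9, 54.3 and 68.3 in the wild type. Every knock-out library kept some counts assigned to Lgr5, and replicate 2 held the most. Lgr5 shared 0.676% of its 50-base stretches with 555 other genes. How reads with several positions were counted is not given, so a part of these few counts may belong to other genes. The log2 fold change was -5.37 (SE 0.28), a 41.3-fold fall (adjusted p = 8.2e-10), and -5.84 without knock-out replicate 2.

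Lrig1, a transmembrane protein that restrains ErbB receptors (ENSMUSG00000030029, chromosome 6, 94604529 to 94700158, minus strand), had 100.6, 84.1 and 96.7 CPM in the knock-out, against 532.4, 524.4 and 552.7 CPM in the wild type. The libraries of each genotype lay close together, far from those of the other. Its log2 fold change of -2.52 (SE 0.08, adjusted p = 1.9e-10) was the smallest fall among the 8, and the 2246 to 3188 counts left in each knock-out library made Lrig1 second only to Prom1 in CPM there. Exons of Lrig1 share 144 bases with Slc25a26 on the opposite strand, a gene with 389 to 416 counts in knock-out libraries and 276 to 387 in wild-type libraries; the strand setting of the counting is not given in the sources used here.

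Prom1 (CD133), a membrane protein of cellular protrusions (ENSMUSG00000029086, chromosome 5, 43993620 to 44102032, minus strand), went the other way. It had 1214, 1118 and 1253 CPM in the knock-out, against 566.2, 555.1 and 525.2 CPM in the wild type. All knock-out libraries were about alike and above all wild-type libraries, a rise of 1.12 on the log2 scale (SE 0.07, adjusted p = 8e-08). In the wild type Prom1 was as abundant as Lrig1 in counts, with 0.95 to 1.06 Prom1 counts per Lrig1 count, and in the knock-out it had 12.1 to 13.3. Chromosome 5 as a whole was shifted: the median log2 fold change of its 950 tested genes was 0.39, beside -0.02 over the other autosomes, and 50.7% of its genes were called higher, beside 29% elsewhere on autosomes. Against that median the Prom1 log2 difference was 0.73, and 80.4% of chromosome 5 genes had a lower log2 fold change. Hopx and Msi1 lie on the same chromosome and fell. Prom1 shared 5.1% of its 50-base stretches with 102 other genes, and its exons share 424 bases with Gm16401 on the opposite strand. Gm16401 had 0 to 7 counts in knock-out libraries and 6 to 16 in wild-type libraries.

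Of the nuclear proteins, Ascl2, the basic helix-loop-helix factor that works with Wnt signals to keep crypt stem cells (ENSMUSG00000009248, chromosome 7, 142966829 to 142969264, minus strand), had 5.78, 6.47 and 3.48 CPM in the knock-out, against 75.3, 63 and 74 CPM in the wild type. Replicate 3 was the lowest knock-out library, as for Lgr5. The fall was 13.6-fold (log2 fold change -3.77, SE 0.18, adjusted p = 2.5e-09). Set against Lgr5, knock-out libraries had 2.7 to 4.46 Ascl2 counts per Lgr5 count and wild-type libraries 1.08 to 1.24, without overlap. With 3 libraries against 3, an exact two-sided permutation p cannot fall below 0.1, so this ratio and those below are descriptions. The 250 bases before the RefSeq start of Ascl2 are shown because they hold 3 CCAAT boxes, the most of any marker window (RefSeq, GRCm38.p6, chr7:142969265-142969514, minus strand, 5′ to 3′, with CCAAT and its reverse complement ATTGG in capitals):
Ascl2: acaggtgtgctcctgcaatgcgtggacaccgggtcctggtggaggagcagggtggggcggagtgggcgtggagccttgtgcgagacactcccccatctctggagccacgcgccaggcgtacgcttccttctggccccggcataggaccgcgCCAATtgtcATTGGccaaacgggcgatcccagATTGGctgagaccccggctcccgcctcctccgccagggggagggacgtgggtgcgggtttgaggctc
The boxes begin 99, 90 and 67 bases before the start. No base of this window lies in a GENCODE exon of the gene.

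Hopx, an atypical homeodomain protein that does not bind DNA (ENSMUSG00000059325, chromosome 5, 77086988 to 77115121, minus strand), had 7.86, 9.24 and 7.68 CPM in the knock-out, against 229.3, 215.9 and 265.2 CPM in the wild type. Between them the knock-out libraries differed by 1.2-fold at most. The fall was 28.8-fold (log2 fold change -4.85, SE 0.12, adjusted p = 1.3e-11), and -5.23 on the log2 scale against the chromosome 5 median. The proportion of Hopx, used for reserve cells, to Lgr5, used for cycling cells, overlapped between genotypes through knock-out replicate 2 alone. Knock-out replicates 1 to 3 had 6.07, 3.86 and 8.81 Hopx counts per Lgr5 count, against 3.76 to 3.98 in the wild type. Hopx exons share 412 bases with Hopxos on the opposite strand, which had 0 to 3 counts in knock-out libraries and 10 to 13 in wild-type libraries. The window before 1 of its 2 RefSeq starts is shown as a fallen gene with a single CCAAT box, in capitals as above (chr5:77115124-77115373, minus strand):
Hopx: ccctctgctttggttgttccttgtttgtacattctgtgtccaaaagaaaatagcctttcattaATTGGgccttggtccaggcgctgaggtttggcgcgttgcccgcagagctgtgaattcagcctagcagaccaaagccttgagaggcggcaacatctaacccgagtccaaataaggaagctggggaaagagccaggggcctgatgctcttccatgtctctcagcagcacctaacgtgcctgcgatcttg
The box begins 187 bases before the start.

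Cdca7, a zinc finger protein that recruits a chromatin remodeller for DNA methylation (ENSMUSG00000055612, chromosome 2, 72476159 to 72486893, plus strand), had 39.6, 49.9 and 32.9 CPM in the knock-out, against 260.9, 250.4 and 249.9 CPM in the wild type. The coefficient of variation was 21% between knock-out libraries and 2.43% between wild-type libraries, and the groups were far apart. The fall was 6.24-fold (log2 fold change -2.64, SE 0.12, adjusted p = 3.7e-09).

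The RNA-binding proteins split. Msi1, a translational regulator related to Musashi of Drosophila (ENSMUSG00000054256, chromosome 5, 115429599 to 115455698, plus strand), had no count in any knock-out library, against 59, 63 and 64 counts in the wild type, or 1.98, 3.05 and 2.38 CPM. It had the lowest CPM of all 10 markers in both genotypes. Taking 3 counts over the pooled knock-out libraries as the limit that a count of 0 allows, Msi1 was at least 71.6-fold lower in the knock-out (adjusted p = 3.3e-05), which covers counting error only.

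Mex3a, an RNA-binding protein of slowly cycling Lgr5+ cells (ENSMUSG00000074480, chromosome 3, 88532395 to 88541396, plus strand), had 37.3, 29 and 43.1 CPM in the knock-out, against 25.5, 26.5 and 21.9 CPM in the wild type. The lowest knock-out library, replicate 2, lay just above the highest wild-type library. This was the smallest change of the 10 markers, a log2 fold change of 0.57 (SE 0.15, adjusted p = 0.0048), with 76.4% of all tested genes at a lower log2 fold change. Its window is shown as that of a marker that rose, and it holds no CCAAT box (chr3:88531696-88531945, plus strand):
Mex3a: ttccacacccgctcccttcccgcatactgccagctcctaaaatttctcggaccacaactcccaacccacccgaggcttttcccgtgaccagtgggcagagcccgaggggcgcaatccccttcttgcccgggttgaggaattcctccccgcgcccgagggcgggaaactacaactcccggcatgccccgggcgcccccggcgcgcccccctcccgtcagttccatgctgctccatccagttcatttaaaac
No base of it lies in a GENCODE exon of Mex3a. A window of Prom1, which also rose, held a CCAAT box, but all 250 of its bases lie in GENCODE exons of Prom1. The windows of Cdca7 and Clca3b, which fell, held no such box. Of their bases, 60 and 55 lie in GENCODE exons of these genes.

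The secreted proteins Smoc2 and Clca3b had the highest wild-type levels among the markers that fell by more than 32-fold. Smoc2, a calcium-binding protein of the extracellular matrix (ENSMUSG00000023886, chromosome 17, 14279506 to 14404790, plus strand), had 9, 8 and 1 counts in the knock-out, against 10453, 7887 and 11208 counts in the wild type. In CPM that was 0.284, 0.299 and 0.0323 in the knock-out, against 350, 381.9 and 416.2 in the wild type. No knock-out library came near a wild-type library, and the log2 fold change was -10.86 (SE 0.53, adjusted p = 4.8e-13). Of the tested genes, 0.334% had a lower log2 fold change.

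Clca3b, a secreted member of the family of calcium-activated chloride channel regulators (ENSMUSG00000037033, chromosome 3, 144822623 to 144849357, minus strand), had 7.99, 7.82 and 8.13 CPM in the knock-out, against 577.5, 588.2 and 574.1 CPM in the wild type. It was the most even of the markers in both genotypes, with a coefficient of variation of 1.94% in the knock-out, against 1.27% in the wild type. The fall was 72.6-fold (log2 fold change -6.18, SE 0.09, adjusted p = 1.5e-13). Clca3b shared 6.68% of its 50-base stretches with Clca3a1 and Clca3a2, so a part of the counts may be divided among these genes. Both tested genes that flank it fell as well, Clca3a2 at a distance of 3129 bases (log2 fold change -5.51, adjusted p = 3.1e-08) and Clca4b at 61564 bases. The sequences before the starts of Clca3b and Clca3a2 share a stretch of 69 bases with 1 mismatch (A40G, counted from the 5′ end of the stretch, Clca3b first). Its first 30 bases are shown because they are identical in both genes and hold an octamer, ATGCAAAT, in capitals (GRCm38.p6, minus strand, Clca3b at chr3:144849350-144849379 and Clca3a2 at chr3:144819534-144819563):
Clca3b: tATGCAAATattctggccgtgattcaaatt
Clca3a2: tATGCAAATattctggccgtgattcaaatt
Of the shared stretch, 47 bases lie in a GENCODE exon of Clca3b, which begins upstream of the RefSeq start, and these include 8 of the 30 bases shown. The stretch begins 77 bases before the RefSeq start of Clca3b and 69 bases before that of Clca3a2.

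**Figure D2:**
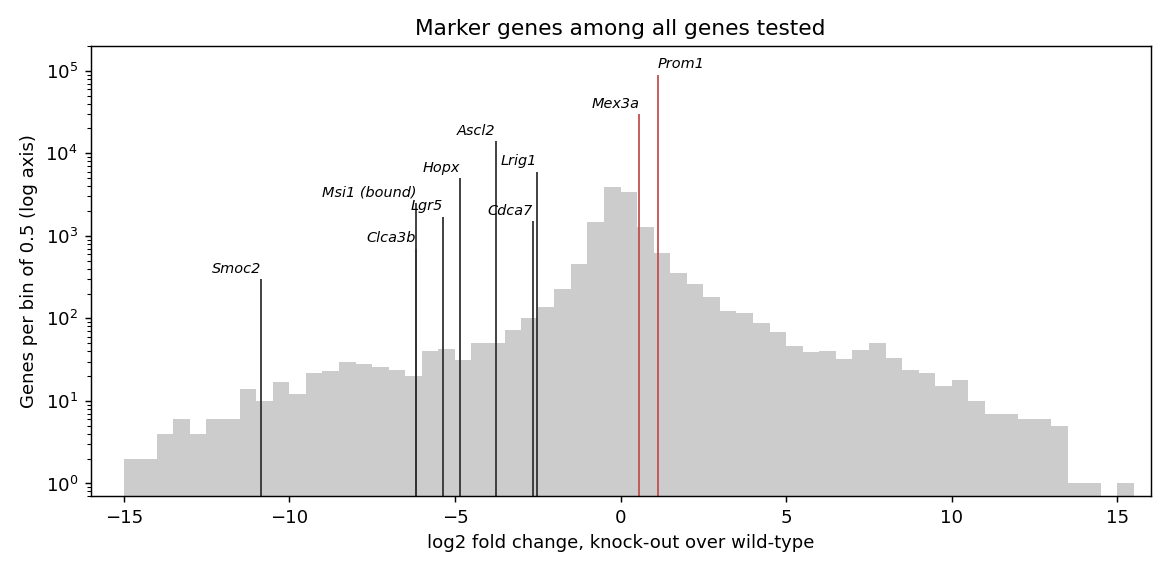
Number of tested genes per bin of 0.5 in log2 fold change, knock-out over wild-type, on a log axis, with vertical lines at the markers that fell (black) and rose (red); line heights carry no value. Msi1 is drawn at its bound of -6.16, and Mex3a and Prom1 stand inside the bulk of the distribution at 0.57 and 1.12.

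The set of RefSeq promoter sequences used here had an entry for 7 of the 10 markers, with 9 windows of 250 bases before a start. Lgr5, Smoc2 and Msi1 were missing from that set, so their windows were not searched. The letters of the TCF/LEF core (CTTTGA or CTTTGT, both strands) occurred in the window of Clca3b alone, 241 bases before the start, and in 27.6% of all 32817 mouse windows of this length. The E-box CAGCTG, of the kind bound by basic helix-loop-helix factors, was in 0 of the 9 windows and in 13% of all windows, and an NF-kB motif in 0 of the 9 and in 7.25% of all. CCAAT was in 5 of the 9 windows (Ascl2, Lrig1, both of Hopx and 1 of Prom1) and in 33.8% of all. That Prom1 window lies wholly in GENCODE exons of the gene. The Lrig1 window and the Hopx window not shown overlap exons of their genes by 13 and 10 bases. The octamer was in the Clca3b window, 76 bases before the start, and in 1.6% of all. CCAAT and the octamer were chosen after the sequences were seen, and a match is a description of letters, not of a bound site.

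Because levels of different genes can be compared only per length, the order of the markers was taken from CPM per kilobase of exon. Exon length joined all annotated transcripts of a gene, from 1 for Mex3a and Clca3b to 19 for Prom1. The ranks and shares therefore depend on the annotation. In the knock-out Prom1 led with 166.6 ± 9.66 CPM per kilobase, followed by Lrig1 (16.8 ± 1.55) and Cdca7 (12.7 ± 2.67), whose ranges overlapped. Mex3a (6.31 ± 1.22) and Hopx (5.45 ± 0.565) came next and overlapped, then Ascl2 (3.23 ± 0.964) and Clca3b (2.37 ± 0.046), which also overlapped, and Lgr5 (0.148 ± 0.0767), Smoc2 (0.0295 ± 0.0216) and Msi1 at 0 stood apart from each other. In the wild type the order was Clca3b (172.5 ± 2.19) and Hopx (156.2 ± 16.8), whose ranges overlapped, Lrig1 (96.1 ± 2.62), then Cdca7 (79.2 ± 1.93) and Prom1 (76.5 ± 2.95), which overlapped. Smoc2 (55.1 ± 4.76), Ascl2 (43.6 ± 4.17), Lgr5 (5.96 ± 0.68), Mex3a (4.26 ± 0.413) and Msi1 (0.425 ± 0.0937) followed without overlap between neighbours. Clca3b thus stood at rank 7 in the knock-out and at rank 1 in the wild type, and Mex3a at rank 4 in the knock-out and rank 9 in the wild type.

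Summed per kilobase, the 10 markers reached 204.2 to 219.4 in knock-out libraries and 671.1 to 712.3 in wild-type libraries. Prom1 alone made up 76.3% to 79.6% of that sum in the knock-out, against 10.3% to 11.5% in the wild type. There were 466.8 to 1438 Prom1 counts per Lgr5 count in the knock-out, against 7.69 to 10.2 in the wild type.

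**Figure D3:**
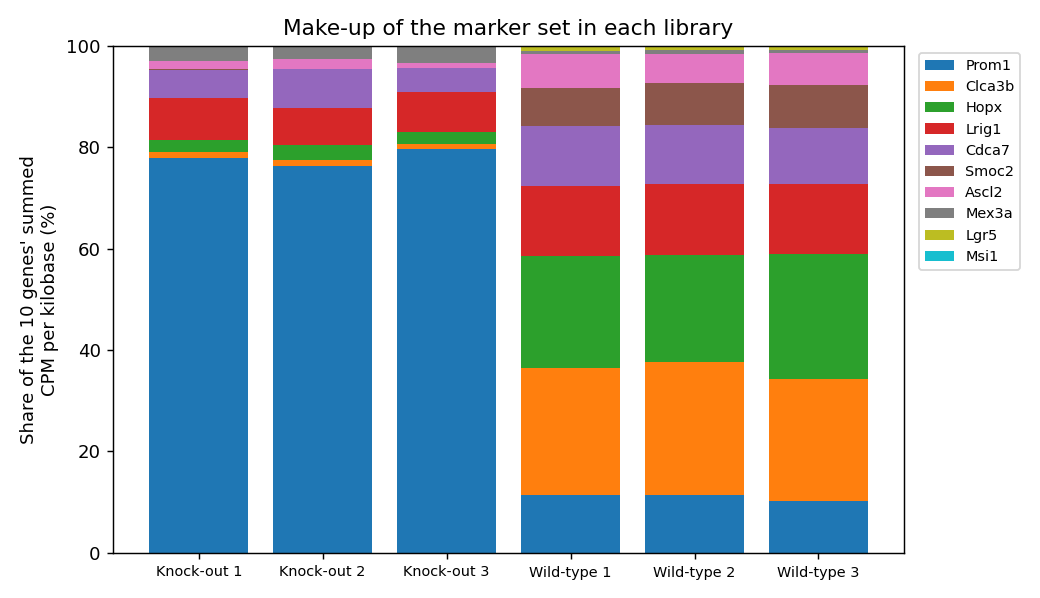
Share of each marker in the summed CPM per kilobase of the 10 genes (stacked bars, percent), 3 knock-out libraries left of 3 wild-type libraries. Prom1 fills 76.3% to 79.6% of each knock-out bar and 10.3% to 11.5% of each wild-type bar, where Clca3b, Hopx, Lrig1 and Cdca7 take most of the rest.

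The markers also differed in how even the knock-out libraries were. Lgr5 varied 2.75-fold and Smoc2 9.28-fold between the highest and lowest knock-out library, while Prom1 varied 1.12-fold and Clca3b 1.04-fold. Of the 9 markers with a knock-out count, 5 (Lgr5, Ascl2, Smoc2, Cdca7 and Hopx) were highest in replicate 2, and the same 5 were lowest in replicate 3. The other 4 (Lrig1, Prom1, Mex3a and Clca3b) were lowest in replicate 2. Some of these ranks rest on small differences. Smoc2 had 9, 8 and 1 counts in knock-out replicates 1 to 3, so its 9.28-fold range is near counting error. Hopx had 7.86 CPM in replicate 1 and 7.68 CPM in replicate 3, and Clca3b varied only 1.04-fold. The coefficient of variation of Lgr5 was 51.8% in the knock-out, against 11.4% in the wild type, at 132 counts in all in the knock-out, against 4781 in the wild type. Without replicate 2, which stood apart, all 10 calls kept their direction and their side of the threshold.

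Family relatives, a list of 21 genes of which 14 were tested, did not all move with their markers. Of the 14, 4 rose, 7 fell and 3 did not pass the test, beside 30.4% higher and 27% lower over all tested genes. Their median log2 fold change was -0.52. That median was not stable: it was -0.94 without knock-out replicate 1, -0.88 without knock-out replicate 2, -0.85 without knock-out replicate 3, -0.87 without wild-type replicate 1, -0.89 with a filter of 1 CPM in 3 libraries and -0.11 with no filter, as 13 to 20 relatives were tested. Lgr4, the other R-spondin receptor of the epithelium, fell 1.84-fold, to 147.6 ± 10.6 CPM in the knock-out, against 272.2 ± 18.5 CPM in the wild type (adjusted p = 1.8e-06). There were 0.00619 to 0.0168 Lgr5 counts per Lgr4 count in the knock-out, against 0.19 to 0.272 in the wild type. Lgr6, the third of these receptors, had 9, 7 and 13 counts in the knock-out, against 0, 0 and 2 in the wild type, too few to be tested. Prom2, the second prominin, rose with Prom1 and by more, with 72.1 ± 1.71 CPM in the knock-out, against 5.04 ± 0.989 CPM in the wild type (14.6-fold, adjusted p = 2.1e-10).

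Msi2, the second Musashi protein, had 91.2 ± 16.9 CPM in the knock-out, against 92.9 ± 7.68 CPM in the wild type (adjusted p = 0.88), beside the absence of Msi1 counts in the knock-out. Lrig3 fell 2.44-fold (adjusted p = 0.00076) and Lrig2 rose 1.35-fold (adjusted p = 0.0081). Cdca7l, the close relative of Cdca7, fell 2-fold (adjusted p = 7.1e-07), less than Cdca7, with 0.664 to 1.14 Cdca7 counts per Cdca7l count in the knock-out, against 2.56 to 2.74 in the wild type. Mex3c rose 1.29-fold (adjusted p = 0.0066), while Mex3b and Mex3d had log2 fold changes of -0.16 and 0.08 (adjusted p = 0.57 and 0.47).

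All 5 Clca genes tested fell, Clca3b as above, Clca1, a goblet cell product, by 20.7-fold, Clca3a1 by 48.6-fold (adjusted p = 8.3e-09) and Clca3a2 by 45.4-fold. Clca4b had 3 counts in the knock-out, against 127 in the wild type, a ratio of wild type over knock-out of 48.9 (95% counting interval 16.3 to 240), and Clca4a, which was not tested, had 0 counts in the knock-out, against 22 in the wild type. Clca3b outnumbered Clca3a1 by 13.1 to 36.1 counts per count in the knock-out and by 22.7 to 29.9 in the wild type, which overlap. Further relatives were near the limit of detection. Ascl4 had 14, 27 and 23 counts in the knock-out, against 0, 3 and 4 in the wild type (adjusted p = 0.0049), and Smoc1, not tested, had 4, 0 and 9 counts in the knock-out, against 0 in every wild-type library. Ascl3 and Clca2 had at most 9 counts in any library, and Ascl5 had none.

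**Figure D4:**
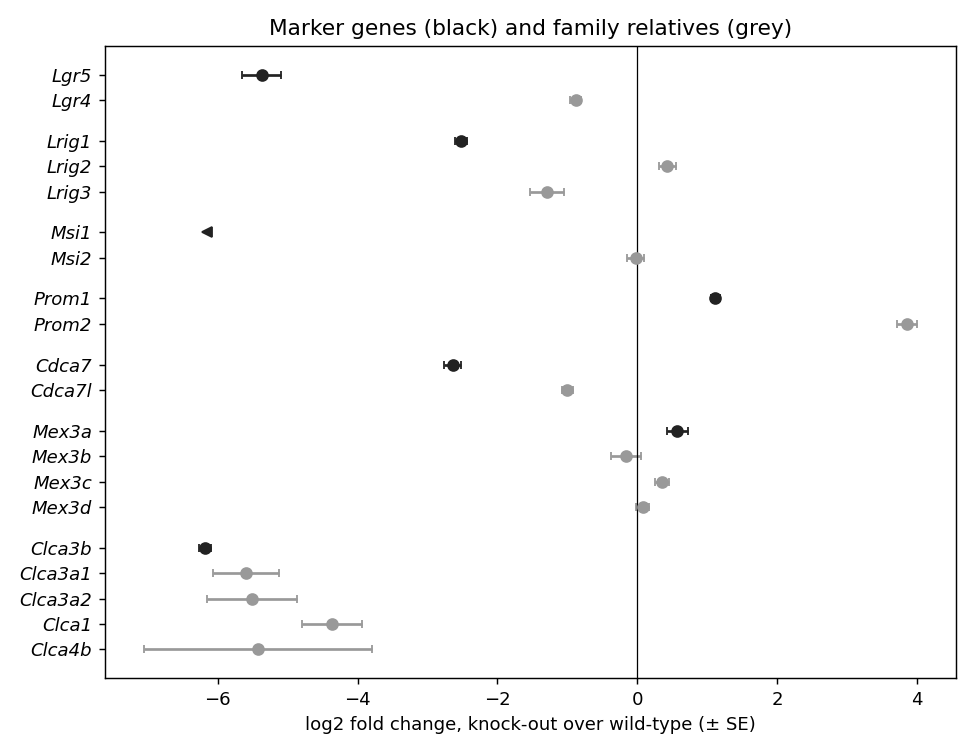
Log2 fold change, knock-out over wild-type, of 7 markers (black) and their tested relatives (grey), with bars of 1 SE of the fit. Msi1 is an arrow at its bound of -6.16 beside Msi2 at -0.02, Lgr5 lies at -5.37 beside Lgr4 at -0.88, and the Clca genes lie at -4.37 or below.

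Other genes of crypt stem cells, a list of 22 with 19 tested, gave 4 higher, 11 lower and 4 not called, with a median log2 fold change of -1.3. Beside these, 30.4% of all tested genes were called higher and 27% lower. Lrp4, a receptor that modulates Wnt signals, had 8.76 ± 1.19 CPM in the knock-out, against 104.2 ± 4.14 CPM in the wild type (11.9-fold, adjusted p = 1.1e-10). Vdr, the vitamin D receptor, fell 8.85-fold (adjusted p = 5e-10), and Tnfrsf19 (Troy), a receptor found with Lgr5, fell 6.68-fold (adjusted p = 9.3e-10). Without a knock-out count were Slc14a1 (at least 1764-fold lower), Dach1 (at least 895.6-fold), Aqp4 (at least 332-fold) and Agr3 (at least 201.2-fold), named after their values were seen. The rises were 3.26-fold for Zbtb38 (adjusted p = 6e-07), 2.21-fold for Mcc (adjusted p = 1.1e-06) and 1.46-fold for Tgif1 (adjusted p = 6.4e-05), with Nav1 the fourth. Olfm4, a marker of these cells in the small intestine, had no knock-out count and 10, 0 and 9 counts in the wild type, too few to be tested.

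Wnt targets and feedback genes were divided, with 3 higher, 7 lower and 3 not called among 13 tested of 14 (median log2 fold change -0.45). The shares over all tested genes were 30.4% higher and 27% lower. Axin2, a feedback inhibitor often used as a readout of the pathway, had 69.3 ± 4.13 CPM in the knock-out, against 385.6 ± 14.8 CPM in the wild type (5.57-fold lower, adjusted p = 1.1e-10). Ephb2, a guidance receptor of the crypt, fell 3.24-fold (adjusted p = 5.6e-09) and Apcdd1, an inhibitor at the receptor, 4.1-fold (adjusted p = 8.4e-07). Ccnd1, which encodes cyclin D1, rose 2.21-fold (adjusted p = 3.5e-08), the adhesion receptor Cd44 rose 1.84-fold (adjusted p = 5.1e-06) and Notum, a secreted Wnt inhibitor, rose 5.21-fold (adjusted p = 0.00011). Myc had 302.5 ± 27.2 CPM in the knock-out, against 277.1 ± 23.9 CPM in the wild type (adjusted p = 0.25).

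Of 5 other genes used for reserve cells, Clu, a secreted chaperone, rose 7.88-fold (adjusted p = 1.2e-09) and Bmi1, a Polycomb protein, 1.57-fold (adjusted p = 5.9e-05). Sox9, which is also counted among the other crypt stem cell genes above, fell 1.81-fold (adjusted p = 1.2e-05), and Tert and Krt15 were not called. Over all tested genes, 30.4% were called higher and 27% lower. All 10 proliferation genes were called lower, beside 27% of all tested genes, but by little, with a median log2 fold change of -0.56. Top2a fell 1.76-fold (adjusted p = 8.5e-07), Mcm5 1.76-fold (adjusted p = 8e-06) and Bub1 1.62-fold (adjusted p = 4.1e-05). There were 0.00202 to 0.00634 Lgr5 counts per count of the proliferation gene Mki67 in the knock-out, against 0.0835 to 0.113 in the wild type.

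The nearest tested protein-coding genes on each side of the 7 other markers that fell were mixed: of 14, 5 were called higher, 3 lower and 6 not, a share of calls close to the 57.4% over all tested genes. The largest of these falls was -1.17 on the log2 scale (Tspan8, beside Lgr5), and the largest rise was 3.74 (Spink2, beside Hopx, adjusted p = 0.0011). Of the 4 beside Prom1 and Mex3a, 3 were called higher, beside 30.4% of all tested genes and 50.7% of those on chromosome 5, where Fgfbp1, next to Prom1, had a log2 fold change of 1.02. This look at neighbours was added after values were seen.

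The summed levels of goblet, Paneth, enterocyte and enteroendocrine markers were lower in every knock-out library than in any wild-type library. The summed CPM of 6 goblet cell markers was 43.9 to 77.4 in the knock-out, against 1103 to 1131 in the wild type, and that of 5 Paneth cell markers 5.61 to 15.7 in the knock-out, against 572.1 to 740.2 in the wild type. For 6 enterocyte markers it was 4 to 6.23 in the knock-out, against 80.3 to 96 in the wild type, and for 5 enteroendocrine markers 0 to 0.419 in the knock-out, against 5.87 to 19.4 in the wild type. Slc5a1 made up most of the enterocyte sum in the wild type, at 72.8 CPM against 0.0692 CPM in the knock-out. Fabp2 was 2.85-fold and Sis at least 29.2-fold lower, and Alpi was not called (adjusted p = 0.24). Fabp1 had no count in any library, and Apoa1 had too few to be tested. Of the Paneth markers, 3 were at 0 in the knock-out and Lyz1, the lysozyme that defines these cells, had 1 count in all. The epithelial genes Epcam, Cdh1, Vil1, Krt8, Krt18 and Krt19 had counts in every library, though not at equal levels: Epcam was 2.22-fold and Vil1 1.85-fold lower, Krt19 2.69-fold, Krt8 1.35-fold and Krt18 1.32-fold higher, and Cdh1 was not called (adjusted p = 0.077). Cdx1, an intestinal homeobox gene, had no knock-out count (at least 190.4-fold lower) and Cdx2 was 9.39-fold lower, at 20.6 ± 1.3 CPM in the knock-out, against 192.8 ± 10.6 CPM in the wild type. Tuft cell markers summed to 75.9 to 108.8 CPM in the knock-out, against 9.51 to 11.8 CPM in the wild type. That rise was Avil alone, 20-fold higher (adjusted p = 7.1e-10); Trpm5 was 17.9-fold lower (adjusted p = 2.8e-05), Pou2f3 1.71-fold lower (adjusted p = 0.037), and Dclk1 had a log2 fold change of -1.39 (adjusted p = 0.13). Of 7 fibroblast markers 5 were at 0 in each genotype, with a sum of 0.452 to 0.884 CPM in the knock-out, against 0 to 0.339 CPM in the wild type. Endothelial markers, mostly Tek, summed to 0.299 to 0.442 CPM in the knock-out, against 9.93 to 14.5 CPM in the wild type. Leukocyte markers, mostly Cd68, summed to 12 to 12.8 CPM in the knock-out, against 1.81 to 6.97 CPM in the wild type, and neuronal and glial markers to 1.98 to 2 CPM in the knock-out, against 0.803 to 3.15 CPM in the wild type. The part of these cell types in the marker results was not tested.

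As a description, the genes with the profile nearest to a marker over the 6 libraries were sought among 11467 protein-coding genes by Euclidean distance of centred log2(CPM + 0.5). For Lgr5 these were Ppp1r14d (distance 0.26), Dapk2 (0.51) and Irf8 (0.63). Ppp1r14d had 1.15 ± 0.553 CPM in the knock-out, against 52.6 ± 5.67 CPM in the wild type. For Smoc2 they were Muc13 (0.53), a transmembrane mucin, Reg3g (0.78), an antimicrobial lectin, and Lyz1 (1.11). Muc13, Reg3g and Lyz1 had 0 to 3 counts in each knock-out library. With 0.5 added to each CPM, their distances to Smoc2 rest mostly on the wild-type level. For Prom1 the nearest were Cat (0.09), which encodes catalase, Klhl42 (0.1) and B4galt7 (0.11).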

How the data were processed

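RNA of 6 tumoroid libraries, 3 per genotype, was sequenced with a stranded kit after polyA selection, per the labels' protocols. Reads were aligned with STAR to GRCm38, per the submitters' processing notes; for the counting program, its strand setting and reads with several positions, no details were given in the sources used. What the authors deposited are raw whole-number counts for each Ensembl gene. Symbols, coordinates and exon lengths come from the GENCODE annotation of GRCm38.

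Counts were tested with the quasi-likelihood test of edgeR 4.0.16 (R 4.3.3) on genotype alone, with TMM scaling and filterByExpr (minimum count 10, minimum total 15), and p-values were adjusted by Benjamini-Hochberg over 13759 genes with a threshold of 0.05. CPM are relative to the TMM-scaled library size. Standard errors come from the model's weights and quasi-likelihood dispersion. No pair of libraries agreed within sampling noise. The test was tried first on simulated data. Alternatives used DESeq2 1.42.0, limma 3.58.1 (voom), other scalings and filters, a replicate term and each library left out. The members and gene lists were chosen with earlier results of these data known. Genes named are all members, the relatives, up to 3 genes per further list and direction with the smallest adjusted p, and up to 3 nearest profiles for Lgr5, Smoc2 and Prom1; others are examples of a count or were named after their values were seen. An item under this rule is not reported here.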

Additional observations from a re-analysis of the deposited data

How the results depend on the processing

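All 10 marker calls and the counts over the 5 further gene lists kept their direction and their side of the threshold, or stayed within 1.5 times, under each of the 16 alternative fits and at an adjusted p of 0.01. Mex3a came nearest to losing its call (adjusted p = 0.028 without knock-out replicate 3), and its log2 fold change ranged over 0.44 to 0.68, that of Lgr5 over -5.84 to -5.08 and that of Smoc2 over -11.22 to -10.34. Calls over all genes ranged from 7077 (without knock-out replicate 3) to 8899 (without knock-out replicate 2), around 7896. The labels do not say whether same-numbered libraries are paired. Correlations of deviations between same-numbered libraries were 0.108, -0.11 and -0.19, and those of other combinations ran from -0.177 to 0.269. With 3 libraries per genotype they cannot decide whether pairs exist. The fit with the replicate block gave 7432 calls, and it still called all 10 markers. At 0 to 64 counts per library for Msi1 and 1 to 9 in the knock-out for Smoc2, counting error limits the size of the fall.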
